A study of Mus musculus with 46 samples.

Results

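Chromatin that lost accessibility during a fast and regained it after a leptin injection was examined in AgRP neurons of the mouse arcuate nucleus. The regions are ATAC-seq peaks, chosen from the deposited table of log2 CPM (read counts scaled to a common library total) by 4 conditions. The mean of the 6 libraries was at least 1, the mean of the fasted libraries was lower than that of the fed libraries by at least 0.6, the mean of the leptin libraries exceeded that of the fasted libraries by at least 0.6, and the highest fasted value lay below the lowest fed and the lowest leptin value. Of 90196 peaks in the table, 74904 met the level condition and 1408 met all conditions. These 1408 are called reopened peaks here. For comparison, 4091 peaks closed by the same measure with fasting but stayed within 0.2 of their fasted level after leptin, and 1158 peaks followed the mirror course, opened with fasting and closed after leptin.

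AgRP neurons drive feeding and are active when energy stores are low. Leptin, a hormone of fat tissue, restrains them through its receptor, which activates the kinase JAK2 and the transcription factor STAT3, a protein that enters the nucleus and binds DNA at short palindromes. ATAC-seq cuts and tags DNA that is not wrapped tightly around nucleosomes, so a peak marks a stretch that regulatory proteins can reach, such as a promoter or an enhancer.

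The ATAC-seq and AgRP RNA libraries came from male C57BL/6J mice carrying the NuTRAP construct, aged 6 to 11 weeks, in which Cre expressed from the Agrp locus turns on GFP-tagged L10a ribosomal protein. Mice were fed with vehicle (PBS), fasted for 18 to 20 h with vehicle, or fasted and given leptin by intraperitoneal injection at 5 mg/kg, and tissue was taken 3 h after the injection. Each state had 2 ATAC-seq libraries of sorted GFP-positive nuclei from 4 pooled mice. Other libraries that the choice of peaks did not use were AgRP-positive and AgRP-negative arcuate nuclei (2 ATAC-seq libraries each), ribosome-bound RNA of AgRP neurons (3 fed, 4 fasted and 4 leptin libraries) and of POMC neurons from NuTRAP mice with POMC-IRES-Cre (2 libraries per state), CUT&RUN of CTCF in AgRP nuclei and in the cerebellum, and CUT&RUN of IRF3 in nuclei of mice whose AgRP neurons carry IRF3-2D, a constitutively active form. The mice of these other libraries were also aged 6 to 11 weeks, and the CUT&RUN mice were fed and untreated. Since animals were pooled, variation between animals was not measured, and a difference between states is judged against 2 pools per state in ATAC-seq.

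Total counts per library ran from 8263234 to 17190963 over the 6 ATAC-seq libraries of the 3 states, from 8685497 to 11177208 in sorted positive and negative nuclei, and from 25581041 to 54511107 in AgRP RNA. Promoters of the 10 AgRP neuron markers summed to 359 to 376 CPM in AgRP-positive and 180 to 193 CPM in AgRP-negative nuclei, and that of Slc17a6, the marker of glutamatergic neurons, was at no more than 1.1 CPM in the 6 libraries of the 3 states. The 5 astrocyte markers summed to 6.8 to 8.94 CPM in fed, 18.6 to 20.1 CPM in fasted and 21.3 to 25.8 CPM in leptin libraries, and endothelial markers to 5.54 to 8.99, 16.6 to 17.1 and 17.5 to 20.8 CPM. Oligodendrocyte markers went the other way, at 48.6 to 49.0, 37.4 to 41.5 and 36.1 to 40.5 CPM. The endothelial sum rested on 2 peaks. In sorted nuclei that sum was higher in AgRP-positive (4.08 to 5.87 CPM) than in AgRP-negative libraries (1.72 to 2.01 CPM), while astrocyte and oligodendrocyte sums were lower. Whether it reflects endothelial cells was not tested. The AgRP RNA libraries also held transcripts of other cells. Slc17a6 was at 142 to 282 CPM, astrocyte markers at 398 to 928 CPM and oligodendrocyte markers at 449 to 875 CPM. The AgRP neuron markers summed to 3450 to 10400 CPM there. The part of other cell types in the results was not tested, and in such bulk libraries fewer cells of a type and less signal per cell cannot be told apart.

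The sequences of 5 reopened peaks are shown because they carry the STAT or IRF letters counted below. The first 4 hold the STAT palindrome TTCNNNGAA, where N is any base, and lie in a pair of the peaks with the largest changes and near Tnfrsf11b and Serpina3i, genes whose RNA rose with leptin. The last is the promoter peak of Ifit3b, an interferon-induced gene, with the IRF letters GAAANNGAA. Each run is the central 300 bases of a peak on the plus strand of GRCm38/mm10 (RefSeq GRCm38.p6). Capitals mark the STAT letters in the first 4 and the IRF letters, of either strand, in the last. The window near Serpina3i also holds IRF letters, which are not in capitals.
chr17:54667436-54668082: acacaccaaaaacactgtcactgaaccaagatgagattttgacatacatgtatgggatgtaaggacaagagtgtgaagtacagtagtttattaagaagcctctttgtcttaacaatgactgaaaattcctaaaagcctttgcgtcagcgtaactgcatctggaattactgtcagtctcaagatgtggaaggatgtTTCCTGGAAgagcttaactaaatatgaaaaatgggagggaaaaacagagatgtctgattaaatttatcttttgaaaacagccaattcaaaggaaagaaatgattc
chr9:41733229-41733645: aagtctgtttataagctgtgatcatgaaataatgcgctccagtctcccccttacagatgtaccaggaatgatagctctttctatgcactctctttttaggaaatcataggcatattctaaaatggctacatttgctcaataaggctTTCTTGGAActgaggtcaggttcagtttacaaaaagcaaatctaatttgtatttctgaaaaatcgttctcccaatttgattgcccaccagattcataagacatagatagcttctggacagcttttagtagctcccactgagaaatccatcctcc
Peak near Tnfrsf11b: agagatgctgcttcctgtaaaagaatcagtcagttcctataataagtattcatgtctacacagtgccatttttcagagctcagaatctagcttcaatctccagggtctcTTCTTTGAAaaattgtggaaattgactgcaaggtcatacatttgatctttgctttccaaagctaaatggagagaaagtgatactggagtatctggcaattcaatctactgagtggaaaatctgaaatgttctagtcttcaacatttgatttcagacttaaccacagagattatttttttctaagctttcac
Peak near Serpina3i: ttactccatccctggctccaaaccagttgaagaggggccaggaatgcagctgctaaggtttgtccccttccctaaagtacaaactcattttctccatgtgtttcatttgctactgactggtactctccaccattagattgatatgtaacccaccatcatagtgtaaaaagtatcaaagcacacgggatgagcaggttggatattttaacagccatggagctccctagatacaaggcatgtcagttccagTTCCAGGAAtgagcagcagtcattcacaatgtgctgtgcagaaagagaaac
Ifit3b promoter: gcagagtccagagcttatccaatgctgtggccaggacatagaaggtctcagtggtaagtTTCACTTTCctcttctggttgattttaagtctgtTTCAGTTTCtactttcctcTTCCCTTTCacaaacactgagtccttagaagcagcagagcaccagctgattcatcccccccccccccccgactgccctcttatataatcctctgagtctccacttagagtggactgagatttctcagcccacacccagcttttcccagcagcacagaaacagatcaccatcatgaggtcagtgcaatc

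Positions of the windows were chr17:54667609-54667908 and chr9:41733287-41733586 for the first pair, chr15:54369397-54369696 for the peak near Tnfrsf11b, chr12:104273108-104273407 for that near Serpina3i and chr19:34607711-34608010 for Ifit3b. The Ifit3b window held 3 IRF matches.

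Accessibility of the reopened peaks after leptin lay close to the fed level in the median, with wide variation from peak to peak. All values between the 3 states describe the choice and carry no test. The median log2 CPM of the 1408 peaks was 2.57 and 2.11 in the fed libraries, 1.12 and 1.13 in the fasted libraries and 2.26 and 2.24 in the leptin libraries. The median difference was −1.09 (interquartile range −1.46 to −0.84) between fasted and fed and 0.97 (0.76 to 1.38) between leptin and fasted. Leptin minus fed had a median of −0.09 (−0.43 to 0.26), so that 464 peaks (33.0%) ended within 0.2 of the fed level. Another 232 (16.5%) remained at least 0.6 below it and 190 (13.5%) ended at least 0.6 above it. Both leptin libraries lay above both fed libraries at 279 peaks (19.8%) and below both at 350 (24.9%).

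The fed libraries differed from each other at these peaks. Fed library 1 was above fed library 2 at 1127 of 1408 peaks (80.0%), with a median difference of 0.41, against −0.01 over all peaks. Fed library 1 also had the lowest total count among the fed, fasted and leptin ATAC-seq libraries, at 8263234. The next lowest was fed library 2, at 14324992. Whether depth accounts for the difference between the fed libraries was not tested. The leptin libraries were balanced, with the first above the other at 697 peaks (49.5%), as were the fasted libraries, at 675 (47.9%). Without fed library 1 the same conditions gave 1220 peaks, and without fasted library 2 they gave 2673. The conditions cut through a continuum, since the nearest peaks on either side of the fasting threshold were at −0.6 and −0.595, and 67 members and 82 others lay within 0.05 of it. At the leptin threshold these were 0.6 and 0.595, with 156 members and 148 others.

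**Figure D1:**
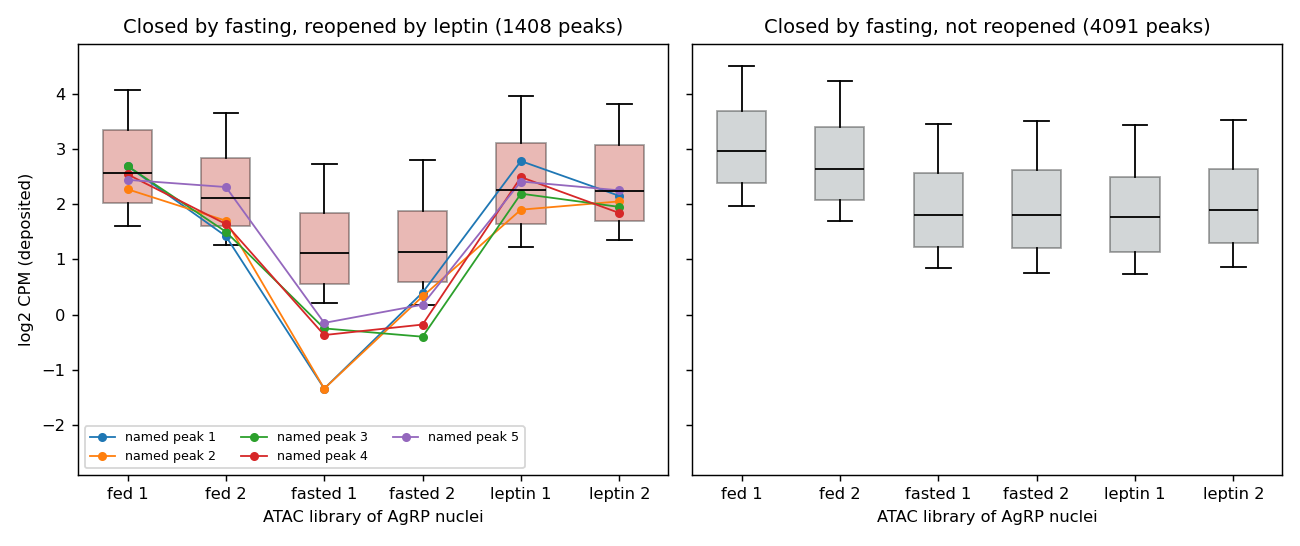
Accessibility (log2 CPM, vertical axis) in the 6 ATAC-seq libraries for the 1408 reopened peaks (left) and the 4091 peaks that closed without reopening (right). Boxes span the 25th to 75th percentile with the median as a line, whiskers run from the 10th to the 90th percentile, and the numbered lines follow the 5 peaks with the largest changes; the left medians fall from 2.57 and 2.11 (fed) to 1.12 and 1.13 (fasted) and return to 2.26 and 2.24 (leptin).

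By the edgeR quasi-likelihood test on the raw counts (calls need a Benjamini-Hochberg adjusted p below 0.05 and a fold change of more than 0.5 on the log2 scale), 781 of the 1408 were called lower in fasted than in fed libraries, where 8.88% of the 102237 peaks tested were called. In leptin against fasted libraries 417 were called higher (2.41% of all peaks tested). Since both contrasts chose the peaks, nothing is read from these counts. Between leptin and fed libraries 113 reopened peaks were called higher and 113 lower, where 23.3% and 13.4% of all peaks tested were called. Without fed library 1 these were 122 and 47, and without fed library 2 they were 40 and 168, so the balance turned with the fed library used. Without fed library 1 the count lower with fasting was 404, and without fasted library 1 the count higher with leptin was 136.

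The 5 peaks with the largest changes in both directions were distal and nearly closed in the fasted libraries. The first (chr17:65018402-65019023), intergenic and 418 kb from the start of Man2a1, measured 2.69 and 1.42 log2 CPM in fed, −1.34 and 0.4 in fasted and 2.78 and 2.15 in leptin libraries. These values rested on 50 and 36, 4 and 19, and 97 and 76 reads. An intron of Cntn6, a neuronal adhesion molecule (chr6:104544725-104545265), measured 2.27 and 1.7, −1.34 and 0.33, and 1.9 and 2.05. In both peaks fasted library 1 was the lower of its pair by more than 1.5 log2 units.

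An intergenic peak with STAT letters (chr17:54667436-54668082, the first sequence above) held 50 and 38 reads in fed, 11 and 10 in fasted and 64 and 66 in leptin libraries, or 2.69 and 1.5, −0.25 and −0.4, and 2.19 and 1.95 log2 CPM. The peak of the other sequence of that pair (chr9:41733229-41733645), in an intron of Gm35835, measured 2.54 and 1.64, −0.37 and −0.18, and 2.49 and 1.84. The last of the 5 (chr12:65664753-65665450, intergenic) was at 2.44 and 2.31, −0.15 and 0.18, and 2.41 and 2.25. Replicates lay within 0.4 of each other in the fasted libraries of these 3 peaks, whereas the fed libraries differed by up to 1.19.

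Reopened peaks lay in promoters less and in intergenic sequence more than all peaks that met the level condition. By the peak centre, 44 (3.12%) lay in a promoter, from 1000 bases before to 100 bases after a start site, against 13.9% of all those peaks. Exons held 59 (4.19%, against 8.02%), introns 651 (46.2%, against 46.6%) and intergenic sequence 654 (46.4%, against 31.4%). The median distance to the start of the nearest gene tested in AgRP RNA was 83.4 kb, against 35.9 kb, and 381 peaks (27.1%) were more than 200 kb from any such start. For 387 of the 1408 (27.5%) that gene was also the nearest annotated gene. The peaks had the width of the others (median 560 bases, against 571) and a lower GC content (median 44.0%, against 48.7%). Chromosome 6 held 129 of them (9.16%, against 5.88% of all) and chromosome 11 held 46 (3.27%, against 6.0%). Dlg2, a synaptic scaffold gene, and Pcdh8, a protocadherin gene, were each the nearest tested gene of 6 reopened peaks.

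Of the 20 motifs searched, the STAT palindrome had the largest difference in share, in percentage points, between reopened and all peaks. TTCNNNGAA stood in the central 300 bases of 503 of 1403 searched peaks (35.9%, 95% Wilson interval 33.4 to 38.4), against 12.0% of all peaks that met the level condition. Peaks that closed with fasting without reopening held it in 11.6% (10.6 to 12.6), and the mirror set in 9.59% (8.02 to 11.4). The peaks not searched were 5 on unplaced scaffolds. Intervals cover counting error only, and matches are letters in the reference sequence, not measured binding. The share stayed above that of all peaks within each quartile of GC content, at 41.1% against 18.5% in the lowest quartile and 21.0% against 4.54% in the highest. It did so within each quartile of accessibility level too, from 30.6% against 13.3% in the lowest to 40.0% against 8.42% in the highest. In promoters 15 of 44 reopened peaks held the letters (34.1%, against 6.21%), and outside promoters the share was 35.9%, against 12.9%.

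The stricter palindrome TTCCNGGAA was found in 177 reopened peaks (12.6%), against 2.4% of all, 2.13% of those that did not reopen and 0.345% of the mirror set. TTCTNAGAA was found in 4.49%, against 1.69%. At least 2 matches of TTCNNNGAA occurred in 80 reopened peaks (5.7%, against 0.971%). Matches lay near the peak centre, with 9.27% of reopened peaks holding one in the 50 bases after the centre and 8.13% in the 50 bases before it, against 2.07% in the outermost bin, which starts 500 bases before the centre. Over all peaks the bin after the centre held 2.34%.

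Across all peaks the share with STAT letters rose with the leptin response, whether or not fasting had closed the peak. It was 8.86% where leptin and fasted libraries lay within 0.2, 25.2% where leptin was higher by between 0.6 and 1, and 54.4% (143 of 263) where it was higher by more than 2. Among peaks closed by at least 0.6 with fasting, the share was 12.1% within 0.2 and 56.1% (74 of 132) above 2. Among peaks whose fasted level was no more than 0.2 below the fed level, it was 9.11% and 52.2% (47 of 90). Within the reopened peaks, the 503 with STAT letters had a median leptin minus fasted difference of 1.16, against 0.90 in the other 905, while fasted minus fed was −1.16 against −1.07. These are descriptions, as the bins use the contrast that chose the peaks.

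**Figure D2:**
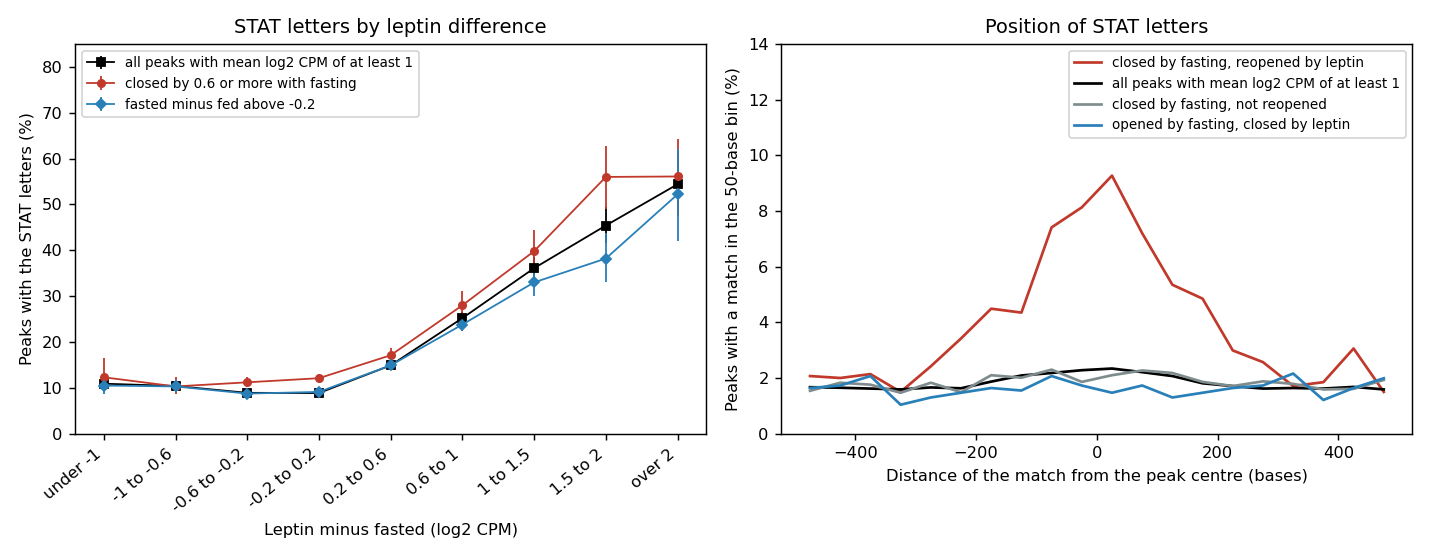
Left, percent of peaks with TTCNNNGAA in the central 300 bases (vertical axis) by leptin minus fasted log2 CPM (horizontal axis), for all peaks, peaks closed by fasting by at least 0.6 and peaks with fasted minus fed above −0.2; all 3 lines climb from around 9 to 12% at no leptin response to 52.2 to 56.1% above 2. Right, percent of peaks with a match per bin of 50 bases by distance from the peak centre (bases), highest at the centre in reopened peaks (9.27%). Bars on the left are 95% Wilson intervals.

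Among the other motifs the largest difference in percentage points was a lower share. AP-1 letters (TGANTCA), bound by Fos and Jun proteins that neuronal activity induces, stood in 10.5% of reopened peaks, against 30.3% of all, 7.19% of peaks that did not reopen and 41.3% of the mirror set. The steroid receptor letters ACANNNTGT were at 11.3%, against 12.6% of all and 34.1% of the mirror set. IRF letters (GAAANNGAA) were at 13.0%, against 9.36%, but from the lowest to the highest quartile of GC content the shares were 15.0% against 14.6%, 14.9% against 10.8%, 7.98% against 7.8% and 1.23% against 4.32%. In 12 of the 69 peaks that held both STAT and IRF letters the matches overlapped. SOX letters (AACAAT) were at 20.5% against 14.2%, but in the lowest quartile of GC content at 27.4% against 25.9%. Homeobox (TAATTA) was at 7.98% against 5.53% and FOXO (GTAAACA) at 5.77% against 4.41%, but in the second quartile homeobox was at 6.38% against 6.97%, and in the lowest quartile FOXO was at 6.51% against 6.4%. ETS (CCGGAAG) was at 2.21% against 4.14%, yet higher in the second and the third quartile (2.6% against 1.89% and 5.46% against 3.81%), SP/KLF (GGGGCGGGG) at 1.07% against 4.16% and CRE (TGACGTCA) at 0.143% against 0.899%. EGR letters (GCGTGGGCG) were in 0 of 1403, which allows a share of up to 0.273%, against 0.363% of all. Over all peaks the EGR share was 1.24% in the highest quartile of GC content, which held 81 reopened peaks. In the lower quartiles it was at most 0.134%. All motifs were searched on both strands.

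**Figure D3:**
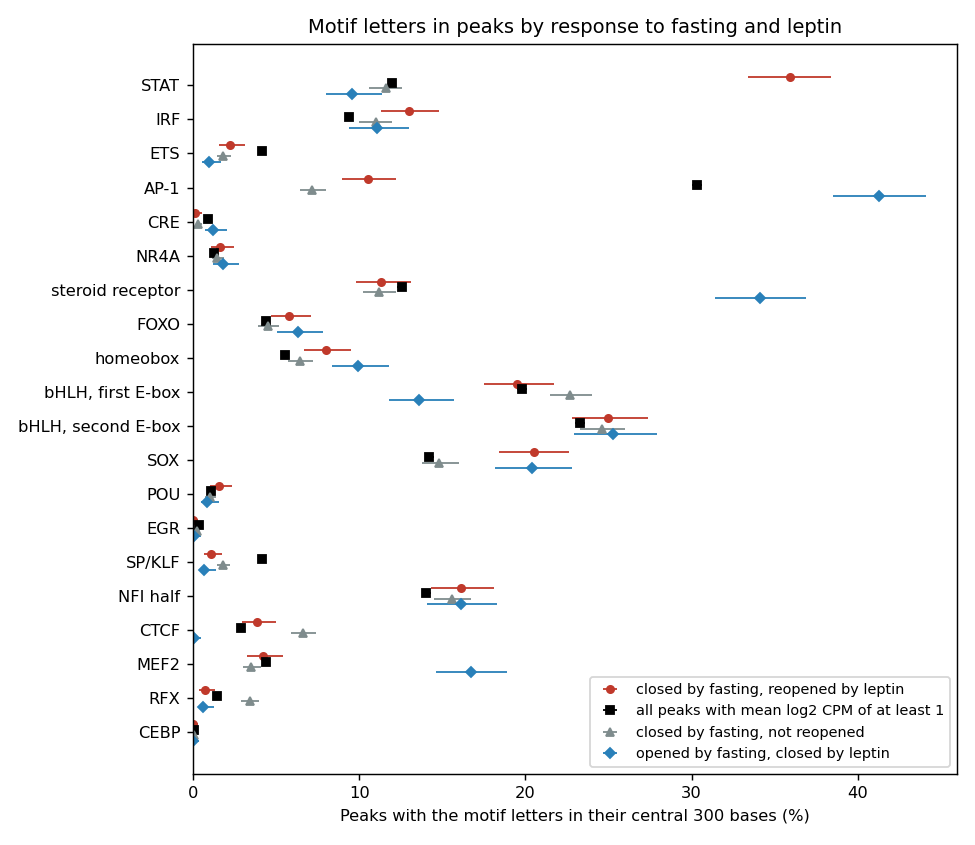
Percent of peaks holding each of 20 motifs in the central 300 bases (horizontal axis) in reopened peaks, all peaks that met the level condition, peaks that closed without reopening and the mirror set, with 95% Wilson intervals. STAT stands apart in reopened peaks (35.9%, against 9.59 to 12.0%), and AP-1 in the mirror set (41.3%).

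Nuclei sorted in a separate experiment showed how open the same regions were in AgRP neurons relative to the rest of the arcuate nucleus. The paper took both populations from the same pools, but the test below did not pair them. Of the reopened peaks, 1126 were matched to a tested peak of that table, and 661 of them (58.7%) were called higher in AgRP-positive nuclei by the edgeR quasi-likelihood test, where 23.9% of the 66560 peaks tested were. Another 65 (5.77%) were called lower, where 15.6% of all were, and the median log2 difference was 1.40. Among all 50337 peaks of the 3-state table that met the level condition and could be matched, 30.0% were higher and 8.64% lower, with a median of 0.17. Of the 4091 peaks that closed without reopening 3348 could be matched, and 23.5% of these were higher and 13.4% lower. Of the 1158 peaks of the mirror set only 437 could be matched, and 51.5% of these were higher and 5.26% lower. The sets are thus compared on unequal parts. Members with STAT letters were higher in 289 of 404 (71.5%) and lower in 8, with a median of 1.88, against 372 of 722 (51.5%) higher and 57 lower among those without, with a median of 1.14. Scaling by library size alone moves the median of all peaks in this comparison by 0.16, and the difference between the sets was not itself tested.

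The largest difference was at chr15:103262323-103262840, a peak with STAT letters 7.14 kb from the start of Nfe2. It measured 0.369 and 0.237 CPM in the AgRP-negative and 8.36 and 11.9 CPM in the AgRP-positive libraries, a log2 difference of 5.02 (SE 0.56, adjusted p = 2.35e-17 by edgeR). The peak chr4:122932905-122933549 measured 0.493 and 0.118 against 9.24 and 7.67 CPM (4.75, SE 0.593), and chr5:74765659-74766439 measured 0.369 and 0.355 against 10.6 and 8.0 CPM (4.63, SE 0.555). In these 3 regions the AgRP-negative libraries were nearly without reads. The opposite extreme was chr3:34639245-34639635, in an intron of Sox2ot, the transcript that surrounds the stem cell factor gene Sox2. It was at 16.9 and 13.9 CPM in AgRP-negative and 4.89 and 2.75 CPM in AgRP-positive nuclei (log2 difference −2.01, SE 0.273, adjusted p = 5.3e-12 by edgeR). Lower too were chr16:25263681-25264074 (9.24 and 8.41 against 3.82 and 2.17 CPM, −1.57, SE 0.334) and chr2:167594375-167594820 (4.68 and 5.69 against 1.24 and 2.17 CPM, −1.59, SE 0.441), the last of which lost its call without AgRP-negative library 2. All 5 peaks with the largest changes between the states were called higher in AgRP-positive nuclei, by 1.15 to 2.18 on the log2 scale.

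Promoter peaks were few among the reopened ones, and most of their genes were not among those tested in AgRP RNA. Of 44 promoter peaks, 10 had an own gene that was tested, of which Cpne8 rose with leptin and Slc9b2 fell with fasting. The most accessible was that of Cpne8, a copine that binds membranes in response to calcium (chr15:90678529-90680355). It measured 4.49 and 4.54 log2 CPM in fed, 3.79 and 3.85 in fasted and 4.79 and 4.62 in leptin libraries. Its RNA was at 6.21 ± 1.19 CPM in fed (SD, n = 3), 4.33 ± 0.644 in fasted (n = 4) and 14.8 ± 3.44 in leptin libraries (n = 4), a log2 difference of 1.77 between leptin and fasted (SE 0.186, adjusted p = 0.000592 by edgeR).

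Among the 10 most accessible promoter peaks, those of Ifit3b, Ifit3 and Serpina3f are described as examples, with no theme tested. That of Ifit3b (chr19:34607458-34608264) was at 3.84 and 3.94, 3.05 and 2.75, and 3.92 and 3.79 log2 CPM, and that of its neighbour Ifit3 (chr19:34583095-34583826) at 3.49 and 3.54, 2.2 and 2.68, and 3.3 and 3.57. The promoter of Serpina3f, a serine protease inhibitor gene (chr12:104213806-104214787), held STAT and IRF letters and was at 3.44 and 2.75, 2.5 and 2.14, and 3.39 and 2.74. In each the leptin libraries overlapped the fed ones. The promoter of Gm15894 (chr8:110754513-110755559) lay within the gene Il34, which encodes a ligand of the CSF1 receptor. It held STAT letters and was at 3.87 and 3.94, 3.22 and 3.37, and 4.21 and 3.97. The promoters of the predicted genes Gm4974 and Gm13455 were the ones most particular to sorted AgRP-positive nuclei among the 10 most accessible, with log2 differences of 3.55 and 2.89.

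Among the genes nearest to reopened peaks, the share whose RNA rose with leptin was above that of all genes tested. Of 1117 such genes 42 (3.76%) rose between fasted and leptin libraries, where 1.19% of the 13401 genes tested did, and 11 (0.985%) fell, where 0.634% did. The median log2 difference of the 1117 was 0.03, against −0.01 over all genes. Of the nearest genes that started within 50 kb of their reopened peak, 24 of 494 rose (4.86%) and 2 fell. Of all tested genes within 200 kb of a reopened peak, nearest or not, 59 of 2397 (2.46%) rose and 16 fell. With the replicate number as a block, 64 of the nearest genes rose (5.73%) and 15 fell (1.34%), and within 200 kb 94 rose (3.92%) and 24 fell (1.0%), where 1.81% and 1.1% of all genes did. Seen from the genes, 42 of the 160 that rose with leptin (26.2%) were nearest to a reopened peak, against 8.34% of all genes tested. Near the mirror set 11 of 987 genes (1.11%) rose and 31 (3.14%) fell, and near peaks that did not reopen 57 of 2825 (2.02%) rose and 27 fell. Genes nearest to a reopened peak with STAT letters rose in 24 of 456 cases (5.26%), and those nearest to one without in 25 of 770 (3.25%). The difference between these sets was not itself tested. With scaling by library size alone, 32 of the 1117 rose and 3 fell with leptin, and without fasted library 3 or leptin library 1 the counts were 29 and 6, and 28 and 7.

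With fasting the genes nearest to reopened peaks changed in both directions. Between fed and fasted libraries 24 of 1117 (2.15%) fell, where 1.07% of all genes did, and 34 (3.04%) rose, where 2.82% did. With the replicate number as a block 55 fell and 54 rose, where 2.54% and 4.4% of all genes did, and with scaling by library size alone 20 fell and 14 rose. Without fed library 1 or fasted library 3, 14 fell and 21 rose, and without fasted library 4, 50 fell and 39 rose. The balance of the directions thus changed with the scaling and with single libraries. Near peaks that did not reopen, the shares were similar, with 55 of 2825 genes (1.95%) falling and 77 (2.73%) rising. Near the mirror set 69 of 987 genes (6.99%) rose and 10 fell. Genes both lower with fasting and higher with leptin numbered 6 among the 1117 and 17 among all genes tested. With the replicate number as a block they numbered 13 and 31, the 13 being the same 6 with Adgrd1, Adgrg6, Bhlhe40, Gbp9, Lrrk1, Serpina3i and Tmc5.

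The 6 genes called without the block were Drd1, Tnfrsf11b, Man2a1, Zfpm2, Lipg and Hmcn1. Drd1, the dopamine D1 receptor, was at 13.5, 14.2 and 10.6 CPM in fed, 6.94, 7.17, 4.82 and 5.6 in fasted, and 43.5, 35, 38 and 32.7 in leptin libraries. The 3 states did not overlap, with a log2 difference of −1.06 with fasting (SE 0.161, adjusted p = 0.00398 by edgeR) and 2.60 with leptin (SE 0.157, adjusted p = 2.01e-05). Its reopened peak (chr13:53783376-53783799), 272 kb from the start, measured 2.66 and 2.44, 1.35 and 1.49, and 2.1 and 2.27 log2 CPM and did not differ beyond error between sorted nuclei (log2 difference −0.02, adjusted p = 0.97 by edgeR).

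Tnfrsf11b encodes osteoprotegerin, a secreted decoy receptor for the cytokine RANKL. Its RNA was at 3.56, 3.09 and 2.76 CPM in fed, 1.3, 1.25, 1.31 and 0.731 in fasted, and 9.23, 7.07, 6.64 and 5.68 in leptin libraries. It fell by 1.43 on the log2 scale with fasting (SE 0.219) and rose by 2.62 with leptin (SE 0.207, adjusted p = 0.000113 by edgeR). A pair of reopened peaks, both with STAT letters, lay nearest to it. That at 91.1 kb (chr15:54369239-54369854) measured 3.51 and 2.94, 1.32 and 1.13, and 3.16 and 2.77 log2 CPM, and 2.46 and 1.07 CPM in AgRP-negative against 10.6 and 7.83 CPM in AgRP-positive nuclei (log2 difference 2.38, adjusted p = 1.41e-08 by edgeR). That at 79.9 kb (chr15:54198293-54198950) reopened in part, from 3.06 and 2.78 in fed and −0.37 and 0.65 in fasted to 0.9 and 1.26 in leptin libraries.

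Zfpm2, a cofactor of GATA transcription factors, was at 24.4, 24.1 and 25.6 CPM in fed, 16, 15.9, 14.9 and 16.4 in fasted, and 27.3, 24.4, 23.0 and 26.4 in leptin libraries. Fed and leptin libraries overlapped and all fasted ones lay below them (log2 difference −0.64 with fasting, SE 0.0807, and 0.68 with leptin, SE 0.0754, adjusted p = 0.000763 by edgeR).

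Man2a1, a Golgi mannosidase that trims N-linked glycans, was at 41.8, 40.4 and 44.2 CPM in fed, 27.8, 25, 22.7 and 32.1 in fasted, and 81.4, 55.8, 64.6 and 55.5 in leptin libraries (−0.65 with fasting, SE 0.148, and 1.26 with leptin, SE 0.139, both log2). Lipg, endothelial lipase, was at 3.43, 2.36 and 1.96, then 1.12, 0.836, 1.02 and 1.17, then 5.77, 3.33, 5.22 and 3.37 CPM (−1.34, SE 0.263, and 2.10, SE 0.246). Hmcn1, a protein of the extracellular matrix, was at 5.61, 6.52 and 4.3, then 2.57, 3.38, 2.53 and 3.07, then 7.5, 5.15, 6.62 and 4.45 CPM (−0.93, SE 0.207, and 1.04, SE 0.193). In all 3 genes the fasted libraries lay below every fed and leptin library. The fasting calls of these 3 genes, and the leptin call of Hmcn1, were lost when single libraries were left out: without fed library 1 the adjusted p of the fasting change (edgeR) was 0.0926 for Man2a1, 0.0741 for Lipg and 0.0917 for Hmcn1, and without leptin library 1 that of the leptin change of Hmcn1 was 0.0531.

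Rdh10 and Serpina3i rose with leptin and had a pair of reopened peaks each. Rdh10, which oxidises retinol on the way to retinoic acid, was at 11.3, 13.3 and 12.7 CPM in fed, 15.2, 13.0, 12.9 and 13.5 in fasted, and 93.5, 72.1, 86.1 and 60.3 in leptin libraries (2.51 log2 with leptin, SE 0.136, adjusted p = 9.39e-06 by edgeR). Its fed and fasted libraries overlapped, although its peaks at 122 and 156 kb had closed with fasting. Serpina3i, a serine protease inhibitor of the acute-phase family, was at 9.28, 11.8 and 7.06, then 6.76, 4.54, 4.79 and 6.33, then 34.1, 31.8, 42.0 and 29.5 CPM (2.62 log2 with leptin, SE 0.194, adjusted p = 6.29e-05 by edgeR). With fasting it changed by −0.75 (SE 0.199, adjusted p = 0.0543 by edgeR), and with the replicate block the adjusted p was 0.00923. Its peak with STAT and IRF letters, 10.1 kb from the start (chr12:104273023-104273492), measured 2.66 and 1.98, 0.5 and 1.25, and 1.54 and 2.25 log2 CPM. The one at 7.36 kb (chr12:104270328-104270641) measured 1.66 and 0.26, −0.15 and 0.01, and 1.85 and 2.49. Reads of Serpina3 genes, near copies of each other, may be shared among them.

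**Figure D4:**
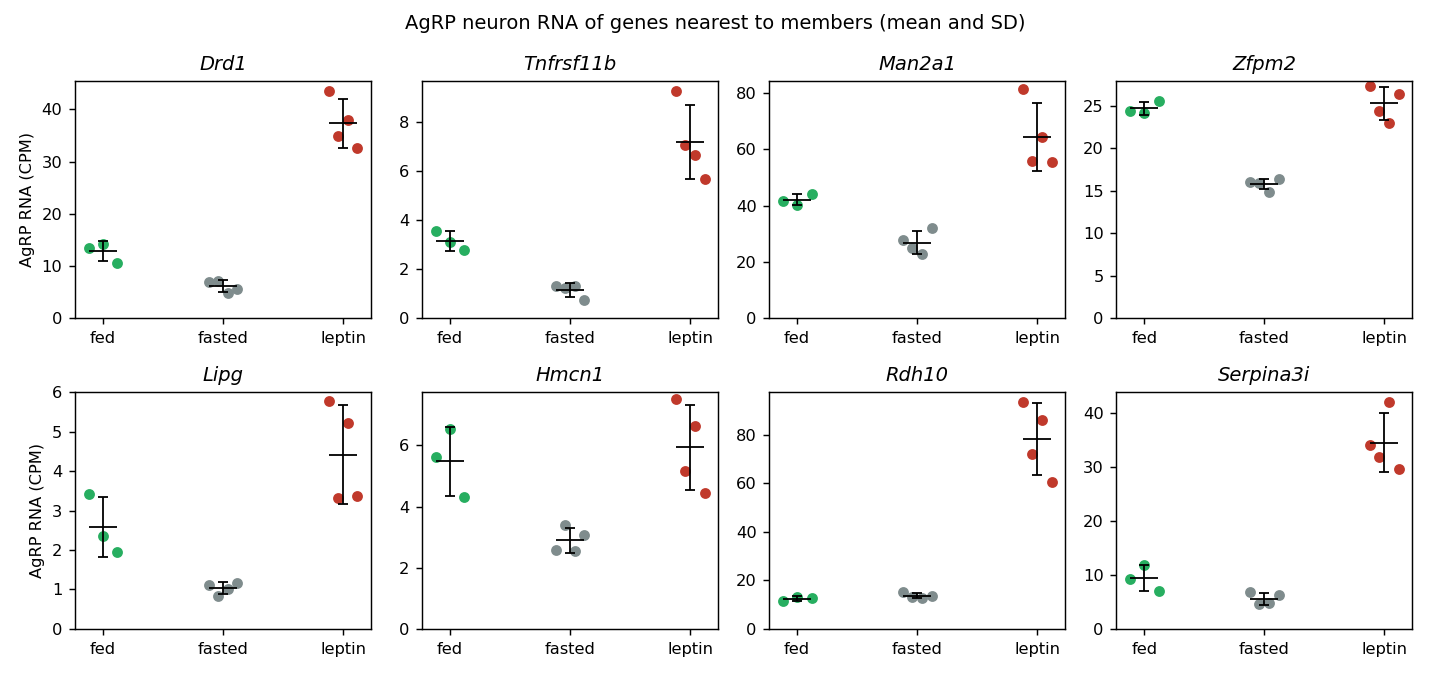
Ribosome-bound RNA (CPM, vertical axes from 0) of 8 genes nearest to reopened peaks, with a point per library and the mean ± SD of fed (n = 3), fasted (n = 4) and leptin (n = 4) libraries. In Drd1, Tnfrsf11b, Man2a1, Zfpm2, Lipg and Hmcn1 the fasted libraries lie below all others, and in Rdh10 and Serpina3i the leptin libraries lie above all others.

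The full set of 42 nearest genes that rose with leptin, beside these 8 and Cpne8, spanned several kinds of protein. It held receptors and signalling proteins (Adgrd1, Ephb6, Gpr63, Htr1a, Il13ra1, Lrrk1, Nrp1, Pde1c, Prkar2b, Ptger2, Ptpn1, Rnd3), transcription and chromatin factors (Arid5b, Bcl3, Bhlhe41, Insm1, Jun, Nr3c2), and secreted or matrix proteins and their enzymes (Adam12, Adamts8, C1qtnf7, Csf1, Megf6, Mmp2, Nptx2, Serpina3c, Serpina3g). The rest were Asb4, Gadd45g, Itga6, Man1c1, Panx1 and Togaram2. The 24 that fell with fasting were, beside the 6 named above, Add3, Adgrg6, Bhlhe40, Bmp3, Car8, Evi5, Gbp9, Kank4, Klhl1, Kndc1, Matn2, Npy2r, Plch1, Rasgrp1, Slc9b2, Tmc5, Tnfaip8l3 and Trpc7. A gene with the nearest start is not shown to be the target of a peak.

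Genes of JAK-STAT signalling were nearest to a reopened peak in 4 of 25 cases (8.34% of all genes tested were). Of the whole list 8 rose with leptin and 4 fell with fasting. Ptpn1, a phosphatase that removes phosphate from JAK2, rose from 44.7, 42.7, 46.9 and 47.4 CPM in fasted to 66.4, 63.5, 73.0 and 56.7 in leptin libraries (log2 difference 0.52, SE 0.0813, adjusted p = 0.00724 by edgeR). That value was at the fold threshold, and the call was lost without fasted library 2 (0.49) or leptin library 3 (0.45). Its intronic peak (chr2:167969707-167970401) measured 3.26 and 2.83, 2.66 and 1.83, and 3.8 and 3.15 log2 CPM. Bcl3, a nuclear partner of NF-kappaB, rose from 0.725, 0.896, 1.2 and 0.585 to 1.85, 1.72, 2.72 and 2.21 CPM (1.29, SE 0.26, adjusted p = 0.0262 by edgeR), a call lost without any of 6 single libraries, with an adjusted p of up to 0.0959. Its peak (chr7:19831859-19832313) ended well above the fed level, at 0.83 and 0.93 in fed, 0.36 and −0.18 in fasted and 2.76 and 2.65 in leptin libraries.

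Introns of Stat5b and Bcl6 held the other peaks of that list. The peak of Stat5b, a relative of STAT3 (chr11:100819732-100820509), measured 2.48 and 2.37, 1.52 and 1.58, and 3.15 and 2.03 log2 CPM. That of the repressor Bcl6 (chr16:23981215-23981577), with STAT letters, measured 2.85 and 1.6, 1.2 and 1.09, and 2.67 and 2.38. Neither gene was called in AgRP RNA with fasting or with leptin.

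Genes of feeding control were nearest to a reopened peak in 4 of 18 cases (22.2%, against 8.34% of all genes tested), Drd1, Ghsr, Npy2r and Ghr. Of the whole list 2 rose and 2 fell with leptin, and 2 rose and 2 fell with fasting. The peak nearest Ghsr, the ghrelin receptor (chr3:27435038-27435631, in an intron of Fndc3b, with STAT letters), measured 3.6 and 2.67, 1.67 and 2.28, and 3.51 and 3.3 log2 CPM and was higher in AgRP-positive nuclei by 2.13 (log2, adjusted p = 1.88e-08 by edgeR). Ghsr RNA was at 192 ± 42.2 CPM in fed (SD, n = 3) and 304 ± 46.4 in fasted libraries (n = 4), a log2 difference of 0.66 against the direction of its peak (adjusted p = 0.0511 by edgeR, and 0.000419 with the replicate block). The peak nearest Npy2r, an inhibitory receptor for neuropeptide Y and PYY (chr3:82651881-82652825), was at 4.05 and 3.54, 2.35 and 2.59, and 3.65 and 3.7. Npy2r RNA fell from 266, 328 and 237 CPM in fed to 147, 99.0, 114 and 153 in fasted libraries (log2 difference −1.11, SE 0.175, adjusted p = 0.00469 by edgeR) but stayed at 172, 133, 157 and 123 after leptin. Ghr, the growth hormone receptor, went against its peak (chr15:3661396-3662282; 2.9 and 2.26, 1.39 and 2.22, 2.67 and 2.6), its RNA rising from 263 ± 50.8 CPM in fed (SD, n = 3) to 545 ± 64.7 in fasted libraries (n = 4; log2 difference 1.05, adjusted p = 0.00496 by edgeR).

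In the insulin and FoxO list 2 of 19 genes (10.5%, against 8.34%) were nearest to a reopened peak, Irs4 and Pik3ca. Without the replicate block no gene of the list was called in AgRP RNA with fasting or leptin. With the block Foxo1, not nearest to a reopened peak, was called higher with fasting (log2 difference 0.56, adjusted p = 0.00114 by edgeR). Its leptin change with the block, −0.49 (adjusted p = 0.00218 by edgeR), missed the fold threshold. The peak nearest Irs4, an insulin receptor substrate of the hypothalamus (chrX:141793809-141794453), rose above the fed level, from 1.93 and 1.67 in fed and 0.94 and 1.13 in fasted to 2.81 and 2.68 in leptin libraries. It was higher in AgRP-positive nuclei by 3.57 (log2, adjusted p = 3.19e-07 by edgeR). In a list of 19 tested AP-1 and activity genes, of which 2 rose and 4 fell with leptin and 6 rose with fasting, Jun alone was nearest to a reopened peak, at 149 kb (chr4:95200410-95201151; 2.95 and 2.46, 0.36 and 0.7, 1.43 and 1.36), and its RNA rose from 62.3, 65.9, 64.4 and 62.6 to 165, 125, 139 and 119 CPM (1.10, SE 0.11, adjusted p = 0.000441 by edgeR). Among 6 IRF genes it was Irf7, with a peak in an exon of Drd4. Of 4 genes that the study named as lowered by fasting and raised by leptin in these RNA libraries, Serpina3i, Drd1 and Man2a1 were nearest to a reopened peak, which is no independent evidence of their direction.

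CUT&RUN, with 1 sample per factor and number of nuclei and therefore no test, located CTCF, a protein that folds chromatin into loops, and IRF3, a factor of the interferon response. A CTCF peak of AgRP nuclei overlapped 355 reopened peaks (25.2%, 95% Wilson interval 23.0 to 27.5), against 25.5% of all peaks that met the level condition, 33.7% of those that closed without reopening and 6.91% of the mirror set. CTCF peaks of the cerebellum overlapped fewer, at 3.62 to 16.1% by the number of nuclei used, against 6.16 to 25.5% of all. An IRF3 peak overlapped 117 (8.31%, 6.98 to 9.87), against 12.4% of all, 14.4% of those that did not reopen and 1.9% of the mirror set. Of the 117, 15 held IRF letters (12.8%, against 7.69% of all peaks with an IRF3 peak).

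The largest total IRF3 signal at a reopened peak was in the Ifit3b promoter (3876), whose sequence is shown above, and Ifit3 carried 2753. The next were a pair of wide peaks on chromosome 8, chr8:20677484-20684652 (3162) and chr8:20701590-20705903 (3031), in a region of repeated gene copies where the placement of reads is uncertain. The intronic Sox2ot peak, with the most negative difference between sorted nuclei, carried 2960, and chr3:98975734-98976228 carried 2935. Of the reopened peaks with an IRF3 peak, 27 of 107 (25.2%) were higher in AgRP-positive nuclei and 18 (16.8%) lower. Of those with a CTCF peak 147 of 310 (47.4%) were higher and 31 (10.0%) lower. Of all peaks tested 23.9% were higher and 15.6% lower, and of those that met the level condition 30.0% and 8.64%. The IRF3 shares were thus near those of all peaks tested.

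POMC neurons, the leptin-sensing neurons next to AgRP neurons that restrain feeding, were examined at the same genes. Of 1103 nearest genes tested in POMC RNA 0 were called with leptin by the edgeR quasi-likelihood test, where 0.0% of 13412 genes rose, and 21 had an unadjusted p under 0.05 (151 of all). With the replicate number as a block 2 were called, both higher, where 7 of all genes (0.0522%) were. With 2 libraries per state the spread is poorly known. Drd1 differed by 0.89 on the log2 scale between leptin and fasted POMC libraries, with an adjusted p of 1.0 by edgeR. Whether the leptin effect differed between AgRP and POMC neurons was not tested.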

How the data were processed

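Members and gene lists were chosen with earlier results of these data known. The authors aligned ATAC-seq reads to mm10 with Bowtie2, called and merged MACS2 peaks and deposited raw read counts per peak (bedtools) and log2 CPM values per library (edgeR). RNA reads were aligned with HISAT2, and the deposited values are counts per gene (featureCounts, Subread). The deposited CTCF CUT&RUN lists give a fold enrichment per peak, and the deposited IRF3 list, assigned as the only one made with SEACR, a total signal per region. The cerebellum list used for the largest number of nuclei carries another number in its own name. Tool versions, and settings for CUT&RUN, are not given in the sources used here. The deposited RNA CPM tables were not used.

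Reopened peaks were chosen from the deposited log2 CPM. Counts were tested with edgeR 4.0.16 (R 4.3.3; quasi-likelihood, TMM, mean over 1 CPM, state as the only term, Benjamini-Hochberg adjustment over all features tested; calls need an adjusted p below 0.05 and a change of more than 0.5 on the log2 scale). DESeq2 1.42.0 was an alternative. Peaks of the sorted-nuclei table were matched by overlap of at least 50% of the shorter interval (bedtools 2.31.1). Of 13401 genes tested in RNA, 12569 were placed on the GENCODE annotation (release M21, basic) by symbol and 292 by an older symbol, and 540 were not placed. Motifs were searched as exact letters on both strands of the central 300 bases. CTCF, MEF2, RFX and CEBP motifs were searched with ambiguity letters. Scripts were tested on simulated data. Depth sets the precision of each value, and the low fasted counts of single peaks carry the largest counting error.

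Same-numbered AgRP RNA libraries deviated together (correlation of deviations from the state means 0.587 to 0.853), as did POMC RNA libraries (0.779 to 0.81), so the numbers were taken as pairs in the alternative fit with a block. The labels do not say what a number shares, and p-values measure the spread between samples of pooled mice.

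Named peaks are the 5 with the largest smaller-of-the-pair change, up to 10 promoter peaks of the highest level, those whose nearest gene changed in RNA (up to 12, genes called in both contrasts first), the 5 of the largest IRF3 signal, the 3 most different each way in sorted nuclei, and those nearest to genes of the lists. Il34, Slc9b2, Dlg2 and Pcdh8 were named after their values were seen, as were the remaining genes of the full sets listed by direction. A further reopened peak was left out of the descriptions of single peaks and is not reported here.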

Additional observations from a re-analysis of the deposited data

Results flagged for a closer look

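A sample far from the other libraries of its state was found in 5 of 120 groups of 4 AgRP RNA libraries checked among genes nearest to reopened peaks, by Dixon's test, which flags about 1 in 20 groups by chance. Fasted library 4 was high for Arid5b, at 91.9 CPM against 57.3 to 59.3 CPM in the other fasted libraries, and for Htr1a, at 36.3 CPM against 24.3 to 26.1 CPM. The same library was low for Tnfrsf11b, at 0.731 CPM against 1.25 to 1.31 CPM. Fasted library 1 was high for C1qtnf7, at 5.16 CPM against 2.46 to 2.85 CPM. Leptin library 1 was high for Nr3c2, at 64.1 CPM against 49.9 to 51.4 CPM.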

How the results depend on the processing

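The conditions gave 812 reopened peaks with both differences at least 0.8, 2051 with no minimum level, 1374 on TMM-scaled and 1317 on library-size-scaled values, and 1220 (without fed library 1) to 2673 (without fasted library 2) with single libraries left out. The STAT share of the peaks so chosen was 42.5% at 0.8, 32.7% without fed library 1, 39.2% without fed library 2, 24.9% without fasted library 1 and 27.6% without leptin library 1, and 48.4% in whole peaks (20.6% of all). Calls with single libraries left out ranged from 404 (without fed 1) to 675 for fasted against fed ATAC, 136 (without fasted 1) to 497 for leptin against fasted, 113 (without leptin 1; 120 without leptin 2) to 225 for leptin against fed, 545 to 670 in sorted nuclei, 35 (without fasted 3 or fed 1) to 89 (without fasted 4) and 35 (without fasted 3 or leptin 1) to 55 for nearest genes with fasting and leptin, 57 (without fasted 3 or fed 1) to 149 and 51 to 79 for genes within 200 kb, and 0 to 0 for POMC RNA.

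Scaling by library size alone gave 34 (fasting) and 35 (leptin) nearest genes and 51 and 49 genes within 200 kb. The nearest genes within 50 kb were called in 17 and 26 cases. IRF3 peaks overlapped 5.26% with the stronger 50% of that list and 4.05% clear of CTCF, CTCF peaks 19.9% with the stronger 50%, and promoters 4.69% with 1000 bases on both sides (21.6% of all). DESeq2 called 78 nearest genes with fasting and 72 with leptin. The shares of all genes called by DESeq2 or with library-size scaling are not given here, so these counts are not read as an excess. Without fed library 1 in the choice of peaks, 590 of 970 were higher and 56 lower in AgRP-positive nuclei. Of all peaks tested 23.9% were higher and 15.6% lower. With leptin 37 of 1000 nearest genes of the peaks so chosen rose and 12 fell, where 1.19% and 0.634% of all genes did. The motif alternatives beyond whole peaks, and the choice without fed library 1, were added after seeing the data. The cause of these changes was not tested.

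With the replicate number as a block, 109 nearest genes were called with fasting and 79 with leptin, 186 and 118 genes within 200 kb, and 2 in POMC RNA. In ATAC-seq the same block gave 932, 605 and 286 calls between the states and 769 in sorted nuclei. Pairs between the states were not shown to share more than a number (correlations −0.00861 to 0.193). The paper took AgRP-positive and AgRP-negative nuclei from the same pools, but the labels do not say that a number marks a pool. Same-numbered sorted libraries had a correlation of 0.113. The shares of all peaks called with the block in ATAC-seq are not given here, and nothing is read from these counts. Of the 19 RNA differences and 6 sorted-nuclei differences of named genes and peaks that were recomputed under the alternatives, 0 reversed. Calls were lost for Bcl3, Man2a1, Hmcn1, Ptpn1 and Lipg under some alternatives, and for 1 sorted-nuclei peak. The low read counts of fasted libraries limit the precision of single peaks.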
